A study of Mus musculus with 8 samples.

Results

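The 10 genes described here encode the enzymes that make serine and pass its carbon into the folate cycle: Phgdh, Psat1 and Psph of serine synthesis, Shmt2, Mthfd2, Mthfd1l and Aldh1l2 of the mitochondrial folate pathway, and Shmt1, Mthfd1 and Aldh1l1 of the cytosolic pathway. They were chosen by symbol from the 32285 genes of the count matrices, and each symbol matched 1 row. Single-nucleus RNA-seq was run on whole hearts of 4 wild-type (WT) and 4 Tafazzin-knockout (Taz-KO) mice, all male and 9 weeks old, as a mouse model of Barth syndrome, with 1 library per mouse. Tafazzin is the transacylase that remodels cardiolipin, the phospholipid of the inner mitochondrial membrane. The knockout allele and the part of the gene that it removes are not given in the sources used here, and no other allele or agent is named for either group. Unique molecular identifiers (UMIs) were summed per mouse over the nuclei of each cell type and are given as CPM, in which the UMIs of a gene are divided by all UMIs of that type in the mouse and put on a common scale.

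Cells take up serine or make it from the glycolytic intermediate 3-phosphoglycerate, by oxidation (Phgdh), transamination (Psat1) and dephosphorylation (Psph). Serine hydroxymethyltransferases, Shmt2 in mitochondria and Shmt1 in the cytosol, move a carbon from serine to tetrahydrofolate, leaving glycine. In mitochondria Mthfd2 oxidises the carbon unit, Mthfd1l releases it as formate for export, and Aldh1l2 oxidises it to carbon dioxide with NADPH as a product. In the cytosol the single protein Mthfd1 recharges folate with formate for purine and thymidylate synthesis, and Aldh1l1 oxidises the unit as Aldh1l2 does in mitochondria. Several of these genes are known targets of ATF4, the transcription factor of the integrated stress response, which is switched on in heart and muscle when mitochondrial function is impaired.

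The promoters of 4 of the genes are shown because the genotypes differed in Phgdh, Mthfd2 and Mthfd1l in cardiomyocytes, as described further on, whereas Mthfd1, the cytosolic counterpart of the latter pair, did not pass the test. Each line gives the 250 bases before the RefSeq start on GRCm38.p6, 5′ to 3′ on the strand of the gene, with every CCAAT, or ATTGG where it lies on the opposite strand, in capitals. The Phgdh window is chr3:98339970-98340219 on the minus strand, the Mthfd2 window is chr6:83317605-83317854 on the minus strand (inside the annotated gene, which starts further upstream there), the Mthfd1l window is chr10:3972825-3973074 on the plus strand and the Mthfd1 window is chr12:76254982-76255231 on the plus strand.
Phgdh: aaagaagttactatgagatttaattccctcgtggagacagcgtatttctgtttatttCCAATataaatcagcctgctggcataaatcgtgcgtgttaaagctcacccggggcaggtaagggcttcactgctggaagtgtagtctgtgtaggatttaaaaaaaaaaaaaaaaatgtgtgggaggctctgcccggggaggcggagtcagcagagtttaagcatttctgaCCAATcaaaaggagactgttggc
Mthfd2: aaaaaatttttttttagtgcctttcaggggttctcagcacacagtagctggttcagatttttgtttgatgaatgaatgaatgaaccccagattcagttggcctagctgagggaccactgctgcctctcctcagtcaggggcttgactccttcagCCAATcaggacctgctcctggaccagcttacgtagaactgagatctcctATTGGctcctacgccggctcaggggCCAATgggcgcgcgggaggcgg
Mthfd1l: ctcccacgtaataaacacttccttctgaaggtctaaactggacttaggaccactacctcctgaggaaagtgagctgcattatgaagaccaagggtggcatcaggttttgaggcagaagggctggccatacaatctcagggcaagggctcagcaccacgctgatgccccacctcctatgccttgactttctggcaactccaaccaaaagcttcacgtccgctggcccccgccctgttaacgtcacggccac
Mthfd1: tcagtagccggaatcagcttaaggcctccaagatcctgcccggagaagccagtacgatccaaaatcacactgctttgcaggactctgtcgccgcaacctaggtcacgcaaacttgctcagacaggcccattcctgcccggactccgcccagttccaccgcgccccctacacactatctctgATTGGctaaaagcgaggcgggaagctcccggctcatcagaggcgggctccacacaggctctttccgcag
CCAAT, the core letters bound by the factor NF-Y, occurred on either strand in 33.8% of the 32851 RefSeq promoter windows. The 10 genes have 10 such windows here, with 2 for Psat1 and none for Aldh1l2, and 7 of the 10 windows held the letters. The Mthfd2 window held 3 copies, starting 96, 47 and 22 bases before the start, and the Phgdh window held 2, at 193 and 23 bases. The Mthfd1 window held 1 copy at 69 bases, and the Mthfd1l window held none. The letters TGATGNAA, a pattern used for C/EBP-ATF elements and searched on both strands, were in 3.45% of all windows and in none of these 10. Introns and downstream sequence were not searched, and a match or its absence is a description of these letters only.

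The libraries differed widely in depth, from 20025456 to 348080773 UMIs. Taz-KO replicates 4685 and 5301 stood apart, with 3492 and 5571 barcodes against at least 21190 in the other 6 libraries, and the numbers of these 10 genes called in each type are given with and without them. After filtering, 151264 of 169193 barcodes remained, among them 25991 cardiomyocyte-like, 38564 fibroblast-like, 22349 endothelial-like, 12260 macrophage-like and 802 adipocyte-like nuclei, hereafter called by the cell type. In those 6 libraries 19071 to 32677 barcodes remained, more than the nuclei that the study states went into each library. The study itself kept fewer nuclei in all. How many of the barcodes are droplets of carried RNA without a nucleus was not tested. Any 2 libraries shared at most 1.04% of the barcodes of the smaller one. The cardiomyocytes carried Ttn at 21205 to 34962 CPM in WT mice and 14584 to 29575 CPM in Taz-KO mice and the 6 fibroblast markers at a sum of 858 to 4486 CPM (median 3434) in WT mice and 172 to 6518 CPM (median 2588) in Taz-KO mice, against medians of 13689.9 and 11217 CPM in fibroblasts. Transcripts that mark 1 type were found in all others. Fibroblasts held Ttn at 2840.1 to 3774 CPM in WT mice and 1323 to 4313 CPM in Taz-KO mice.

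Taz, the targeted gene, was read first as a check of the labels. In cardiomyocytes it stood at 53.8, 49.6, 54.3 and 49.0 CPM in WT replicates 4686, 4909, 5355 and 5356, and at 35.7, 38.2, 28.1 and 31.6 CPM in Taz-KO replicates 4685, 4910, 5300 and 5301. Every Taz-KO mouse was below every WT mouse, and the log2 fold change was −0.75 (SE 0.17, adjusted p = 0.0182, edgeR quasi-likelihood test). Reads of Taz thus remained in the knockout. Whether they came from transcripts with or without the removed part was not tested, as that part is not given. The same order of mice, 4686, 4909, 5355 and 5356 for WT and 4685, 4910, 5300 and 5301 for Taz-KO, is used for all values listed below.

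In cardiomyocytes, 8 of the 10 genes were higher in Taz-KO mice and 1, Aldh1l1, was lower, at an adjusted p under 0.05 over all 18230 genes tested. Of all genes, 12.3% were called, 6.78% higher and 5.49% lower. Among the marker lists of 12 other cell types, that of smooth muscle moved with genotype in these nuclei without overlap, its 5 genes summing to 23.6 to 63.6 CPM in WT mice and 79.5 to 235.7 CPM in Taz-KO mice, and its part in the results was not tested. Of the 10 genes, all 3 of serine synthesis and all 4 of the mitochondrial folate pathway were called higher, while of the 3 cytosolic genes 1 rose, 1 fell and 1 did not pass. No gene had overlapping groups: in 9 genes every Taz-KO mouse lay above every WT mouse, against 13.9% of all genes, and in 1 every Taz-KO mouse lay below, against 7.06%. CPM values are not divided by transcript length, so levels are compared between mice and cell types and not between genes.

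**Figure D1:**
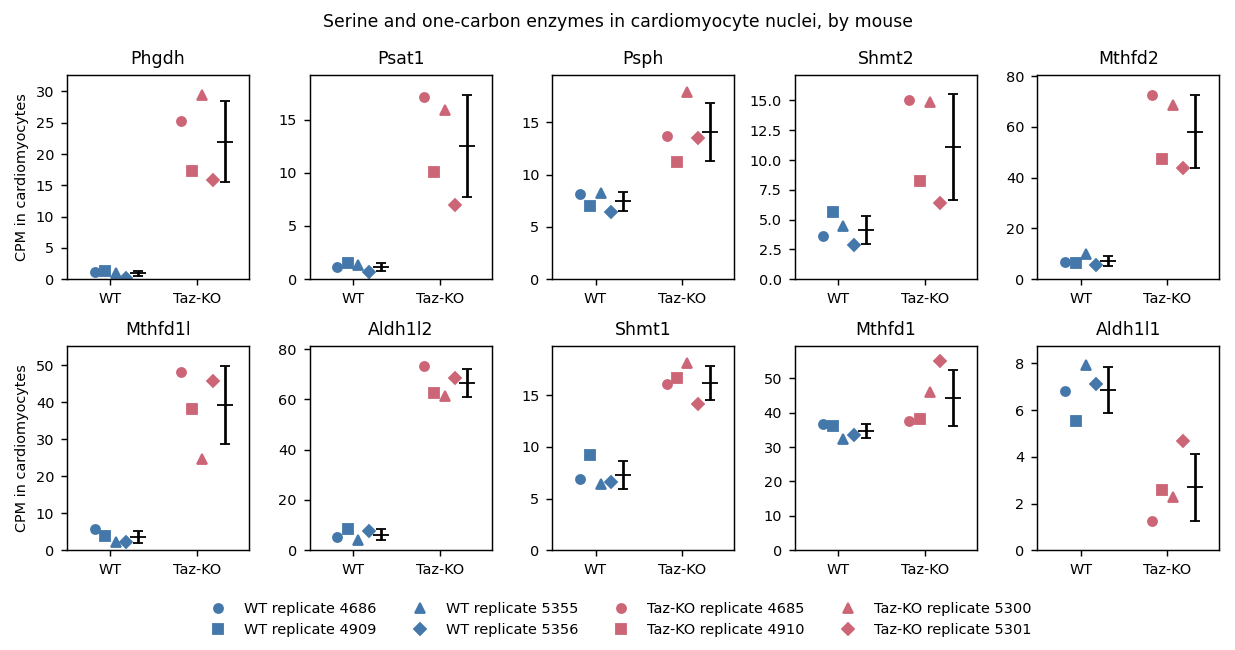
Level of each of the 10 genes in cardiomyocytes, in CPM on a linear axis that starts at 0, with 1 point per mouse for 4 WT and 4 Taz-KO mice and a bar at the mean with 1 SD. The groups are apart in all 10 panels, with Taz-KO above WT in 9 and below it in Aldh1l1.

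Phgdh, the first and committing step of serine synthesis (chr3:98313170-98339990, minus strand) was low in WT cardiomyocytes. It stood at 1.19, 1.28, 0.97 and 0.26 CPM in WT mice, from 10 to 71 UMIs each, and at 25.4, 17.3, 29.4 and 15.9 CPM in Taz-KO mice, from 120 to 1385 UMIs each. The difference was 21.3-fold (log2 fold change 4.41, SE 0.40, adjusted p = 8.4e-05), and the lowest Taz-KO mouse was far above the highest WT mouse.

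Psat1, the aminotransferase of the second step (chr19:15904678-15947337, minus strand), behaved in the same direction. It was 1.15, 1.55, 1.34 and 0.67 CPM in WT mice and 17.1, 10.0, 15.9 and 7.01 CPM in Taz-KO mice, a 9.44-fold rise (log2 fold change 3.24, SE 0.30, adjusted p = 1.07e-04). Psph, the phosphatase that completes the route (chr5:129765558-129787449, minus strand), had a higher WT level relative to its change. It went from 8.14, 6.96, 8.28 and 6.43 CPM to 13.7, 11.2, 17.9 and 13.5 CPM, a 1.72-fold rise (log2 fold change 0.78, SE 0.19, adjusted p = 0.0219). The Psph groups did not overlap, but the call was lost when any of WT 4909, WT 5356 or Taz-KO 5300 was left out, with adjusted p up to 0.0816.

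Among the mitochondrial enzymes, Mthfd2, the dehydrogenase and cyclohydrolase that is low in most adult tissues (chr6:83305691-83325908, minus strand), had the smallest adjusted p of the 10 genes. Its level was 6.82, 6.33, 9.93 and 5.77 CPM in WT mice and 72.5, 47.4, 68.8 and 44.0 CPM in Taz-KO mice, a 7.26-fold rise (log2 fold change 2.86, SE 0.19, adjusted p = 1.66e-05). Taz-KO 4685 and 5300 were the higher pair and 4910 and 5301 the lower pair, an order that Phgdh, Psat1 and Shmt2 shared.

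Mthfd1l, the formate-releasing synthetase (chr10:3973118-4167081, plus strand), differed in that order. It was 5.82, 3.93, 2.28 and 2.18 CPM in WT mice and 48.2, 38.2, 24.7 and 45.8 CPM in Taz-KO mice, with Taz-KO 5300 the lowest of its group. The rise was 10.2-fold (log2 fold change 3.35, SE 0.38, adjusted p = 5.3e-04).

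Aldh1l2, the mitochondrial formyl-tetrahydrofolate dehydrogenase (chr10:83487450-83534140, minus strand), had the most even Taz-KO group of these genes relative to its mean. It was 5.10, 8.37, 3.91 and 7.69 CPM in WT mice and 73.3, 62.6, 61.2 and 68.5 CPM in Taz-KO mice (mean 66.4 ± 5.60, SD, n = 4). The level of Taz-KO 4685 rests mostly on a cluster of 124 nuclei of that mouse alone, described below, at 90.1 CPM. Its 459 nuclei of the next largest cluster held 25.7 CPM, so the evenness depends on that cluster of 124. The rise was 9.68-fold (log2 fold change 3.28, SE 0.27, adjusted p = 4.9e-05).

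Shmt2, which feeds the mitochondrial pathway from serine (chr10:127517123-127522444, minus strand), rose less. It went from 3.65, 5.61, 4.48 and 2.87 CPM to 15.004, 8.21, 14.8 and 6.40 CPM, and the highest WT mouse was close to the lowest Taz-KO mouse. The change was 2.38-fold (log2 fold change 1.25, SE 0.26, adjusted p = 0.0124).

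The cytosolic enzymes did not move together. Shmt1 (chr11:60788104-60811718, minus strand) was 6.88, 9.27, 6.45 and 6.61 CPM in WT mice and 16.1, 16.6, 18.1 and 14.1 CPM in Taz-KO mice, a 2.04-fold rise (log2 fold change 1.03, SE 0.18, adjusted p = 0.00425). Mthfd1 (chr12:76255298-76319803, plus strand) was 36.7, 36.2, 32.3 and 33.5 CPM in WT mice and 37.6, 38.2, 46.0 and 55.0 CPM in Taz-KO mice. Its log2 fold change was 0.24 (SE 0.20, adjusted p = 0.520), so that the groups, although apart in CPM, were not separated by the test. The Mthfd1 level of Taz-KO 4685 rests mostly on the cluster of 124 nuclei of that mouse alone, at 45.5 CPM. Its 459 nuclei of another cluster held 18.4 CPM, below every WT mouse.

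Aldh1l1, the cytosolic counterpart of Aldh1l2 (chr6:90486427-90600203, plus strand), went the other way. It was 6.84, 5.54, 7.93 and 7.10 CPM in WT mice and 1.27, 2.59, 2.27 and 4.67 CPM in Taz-KO mice, from as few as 6 UMIs in Taz-KO 4685. The level was 2.66-fold lower (log2 fold change −1.41, SE 0.39, adjusted p = 0.0396). The call held in 7 of 18 alternative settings and was lost when any 1 mouse other than Taz-KO 5301 was left out, while the log2 fold change stayed between −1.81 and −0.94 over these settings.

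The calls of Phgdh, Psat1, Mthfd2 and Aldh1l2 held in all 18 alternative settings, and that of Mthfd1l in 17, the exception being the typing of nuclei by Ryr2 and Ttn alone (log2 fold change 1.71, adjusted p = 0.0540). A cluster of 124 cardiomyocyte nuclei came from Taz-KO 4685 alone. It held 3341979 of the 4731950 cardiomyocyte UMIs of that mouse, so the cardiomyocyte levels listed for Taz-KO 4685 rest mostly on these nuclei. Without this cluster the 5 genes named above were the ones called, with 3.64% of all genes called, and Psph, Shmt2, Shmt1 and Aldh1l1 were not. At the stricter thresholds of an adjusted p of 0.001 and a log2 fold change of 0.58 the same 5 genes passed, where 1.56% of all genes did, and with typing by Ryr2 and Ttn 6 of the 10 were called, where 3.84% were. Without Taz-KO 4685 and 5301 together, 8 of the 9 calls held and Psph had an adjusted p of 0.0557. The share of all genes called by that fit is not given here, so the count of 8 is not set against it.

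The balance between compartments was tested within each mouse as the ratio of UMIs of a mitochondrial gene to those of its cytosolic counterpart, in which the library total cancels. Such a ratio is not a ratio of molecules, since the 2 genes of a pair differ in length, and only its change between genotypes is read. The ratio of Aldh1l2 to Aldh1l1 ran from 0.494 to 1.51 in WT mice and from 14.5 to 53.5 in Taz-KO mice, a 30.1-fold difference (log2 difference 4.91, SE 0.52). Mthfd1l to Mthfd1 ran from 0.0653 to 0.159 in WT mice and from 0.537 to 1.28 in Taz-KO mice (log2 difference 3.20, SE 0.40). Mthfd2 to Mthfd1 ran from 0.172 to 0.308 and from 0.801 to 1.92 (log2 difference 2.67, SE 0.33). These 3 ratios had a two-sided exact permutation p of 0.0286, the smallest that 4 against 4 mice can give, and an adjusted p of 0.0381 over the 4 ratios compared. Since Aldh1l2 lay above and Aldh1l1 below in every Taz-KO mouse, the p of their ratio was fixed in advance. The ratios of Mthfd2 and Mthfd1l reuse levels already listed as apart, so these p-values add no separate support. The p of the 3 ratios did not change with nuclei typed by Ryr2 and Ttn alone, but the size of the difference did, falling to 15.5-fold (log2 difference 3.95) for Aldh1l2 to Aldh1l1 and to 1.61 on the log2 scale for Mthfd1l to Mthfd1. Without the cluster of 1 library the Aldh1l2 to Aldh1l1 difference was 21.3-fold (log2 difference 4.41).

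The ratio of Shmt2 to Shmt1 was the exception. It ran from 0.435 to 0.695 in WT mice and from 0.455 to 0.935 in Taz-KO mice, with a log2 difference of 0.21 (SE 0.30, exact permutation p = 0.486). Both genes had risen, and a change of their balance was not detected with 4 mice per group.

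**Figure D2:**
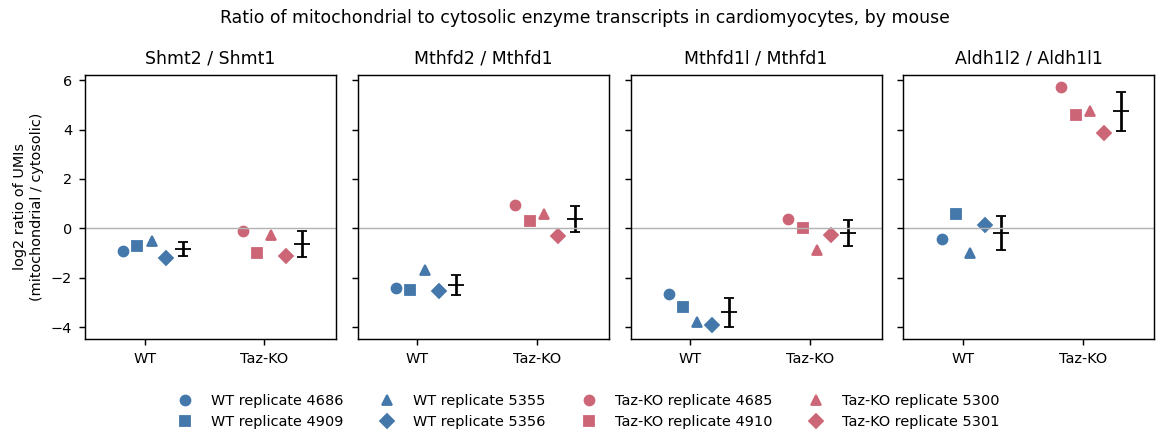
Ratio of the UMIs of each mitochondrial gene to those of its cytosolic counterpart in cardiomyocytes, as log2 values, with 1 point per mouse for 4 WT and 4 Taz-KO mice and a bar at the mean with 1 SD. The groups are apart for Mthfd2 to Mthfd1, Mthfd1l to Mthfd1 and Aldh1l2 to Aldh1l1 and overlap for Shmt2 to Shmt1.

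The cardiomyocytes fell into 4 clusters that held nuclei of both genotypes, from 4 WT mice and 3 or 4 Taz-KO mice each, formed without these 10 genes. Phgdh, Mthfd2, Mthfd1l and Aldh1l2 were higher in every Taz-KO mouse than in every WT mouse within each of the 4 clusters, Psat1 and Psph within 3, Shmt1 and Shmt2 within 2 and Mthfd1 within 1, while Aldh1l1 was lower in every Taz-KO mouse within 1. The genes of the 10 above in every Taz-KO mouse numbered 7, 6, 9 and 5 in clusters 2, 5, 15 and 25, where 4.82%, 6.46%, 14.1% and 4.58% of all genes were above, and 4.92% of all genes were below in cluster 5, that of Aldh1l1. The mice did not share the clusters evenly. Cluster 15 held 90 to 125 nuclei of each WT mouse and 4, 1087, 505 and 137 of Taz-KO 4685, 4910, 5300 and 5301, and the 4 nuclei of Taz-KO 4685 were left out as under the minimum of 10. Taz-KO 4685 had 13 nuclei in cluster 2 and 459 in cluster 5, whereas each WT mouse had 1935 to 2428 and 1083 to 1606 there. Some separations therefore rest on few UMIs. In cluster 2 Taz-KO 4685 had 2 UMIs of Phgdh and 1 each of Psat1, Shmt1 and Shmt2. In cluster 25 Taz-KO 5301 had 1 UMI of Phgdh, and the Mthfd1l groups were 20.38 against 20.29 CPM apart at their nearest. In nuclei thinned to 1000 UMIs each, Aldh1l2 was seen in a median of 0.508% of WT and 5.27% of Taz-KO cardiomyocyte nuclei, and Mthfd2 in 0.756% and 6.10%. Without thinning these shares were 6.62% and 33.7% for Aldh1l2 and 7.61% and 35.2% for Mthfd2. At this depth the shares count nuclei with a UMI and not nuclei that express the gene. In endothelial nuclei thinned in the same way, Aldh1l2 was seen in 0.381% and 1.83%.

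Outside cardiomyocytes fewer of the genes passed the test, and Mthfd2 was called higher in Taz-KO mice in each of the 4 other types. In fibroblasts it was the only one of the 10 genes called, where 0.275% of all genes were called higher. Its level there was 9.25, 8.13, 11.4 and 10.4 CPM in WT mice and 48.4, 74.5, 84.3 and 20.8 CPM in Taz-KO mice (log2 fold change 2.48, SE 0.36, adjusted p = 0.0256). In fibroblasts every Taz-KO mouse lay above every WT mouse in 3 of the 10 genes, Mthfd2, Aldh1l2 and Psph, against 4.41% of all genes.

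In endothelial cells 3 of the 10 genes were called higher, where 0.375% of all genes were. Mthfd2 was 6.90, 7.39, 10.1 and 7.35 CPM in WT mice and 70.5, 84.6, 91.9 and 24.1 CPM in Taz-KO mice (log2 fold change 3.06, adjusted p = 0.0125). Aldh1l2 was 3.25, 4.13, 2.66 and 2.28 CPM against 13.3, 17.6, 17.8 and 13.04 CPM (log2 fold change 2.28, adjusted p = 0.00847), and Phgdh 3.25, 3.08, 3.90 and 0.735 CPM against 31.1, 32.0, 36.2 and 6.02 CPM (log2 fold change 3.27, adjusted p = 0.0371). The Taz-KO mice lay above the WT mice in each of these 3 genes and in no other of the 10, against 3.93% of all genes. The 5 B-lymphocyte markers were the list that moved with genotype without overlap in fibroblasts (41.1 to 59.8 CPM in WT and 16.7 to 37.5 CPM in Taz-KO mice) and in endothelial cells (49.3 to 87.4 and 23.1 to 43.8 CPM), and their part was not tested.

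In macrophages Mthfd2 and Aldh1l2 were called higher, where 0.191% of all genes were. Mthfd2 was 5.08, 7.34, 11.1 and 9.29 CPM in WT mice and 85.0, 83.8, 86.4 and 16.2 CPM in Taz-KO mice (log2 fold change 2.98, adjusted p = 0.0403). Aldh1l2 was 1.39, 3.37, 3.33 and 3.15 CPM against 12.3, 15.4, 14.3 and 8.12 CPM (log2 fold change 2.13, adjusted p = 0.0337). In these genes and Shmt1 every Taz-KO mouse lay above every WT mouse, against 2.57% of all genes.

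In adipocytes, with 21 to 281 nuclei per mouse, 8 of the 10 genes had enough counts to be tested and Mthfd2 was called higher, where 0.408% of all genes were. Its level was 13.9, 9.51, 10.1 and 10.8 CPM in WT mice and 55.6, 60.6, 59.0 and 5.55 CPM in Taz-KO mice (log2 fold change 2.24, adjusted p = 0.0240), with Taz-KO 5301 below every WT mouse. No gene of the 10 had every Taz-KO adipocyte level above every WT level, against 2.67% of all genes tested, and Aldh1l2 and Shmt2 were not tested there. Markers of other types moved with genotype in these nuclei, the 6 T-lymphocyte markers summing to 19.5 to 53.9 CPM in WT mice and 0 to 6.59 CPM in Taz-KO mice and the 6 macrophage markers to medians of 2010 and 766 CPM, and their part was not tested.

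Taz-KO 5301 had the lowest Mthfd2 level of its group in all 4 of these types, and of its group in cardiomyocytes as well. Mitochondrially encoded genes made up 1.57% of the UMIs of its library, against 7.01%, 20.5% and 13.5% in Taz-KO 4685, 4910 and 5300. Its estimate of carried cardiomyocyte RNA, given below, was also the lowest of its group in these types. The part of this in its levels was not tested. Leaving out any other mouse ended the Mthfd2 call in fibroblasts and both calls in macrophages, all 3 endothelial calls were lost without Taz-KO 4910, Taz-KO 5300 or WT 4686, and the adipocyte call was lost without Taz-KO 4910 or 5300 or WT 4686, 4909 or 5355. Without 5301, the genes called numbered 5 in endothelial cells, 4 in fibroblasts, 4 in macrophages and 2 in adipocytes. Without 4685 and 5301 together, the counts in this order were 4, 4, 4 and 2. Calls over all genes in either direction also rose, to 1.15%, 0.717%, 0.985% and 7.37% without 5301 and to 0.651%, 0.644%, 0.809% and 10.8% without both. The shares given above for these types count calls higher in Taz-KO mice only, so they are not a baseline for these.

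**Figure D3:**
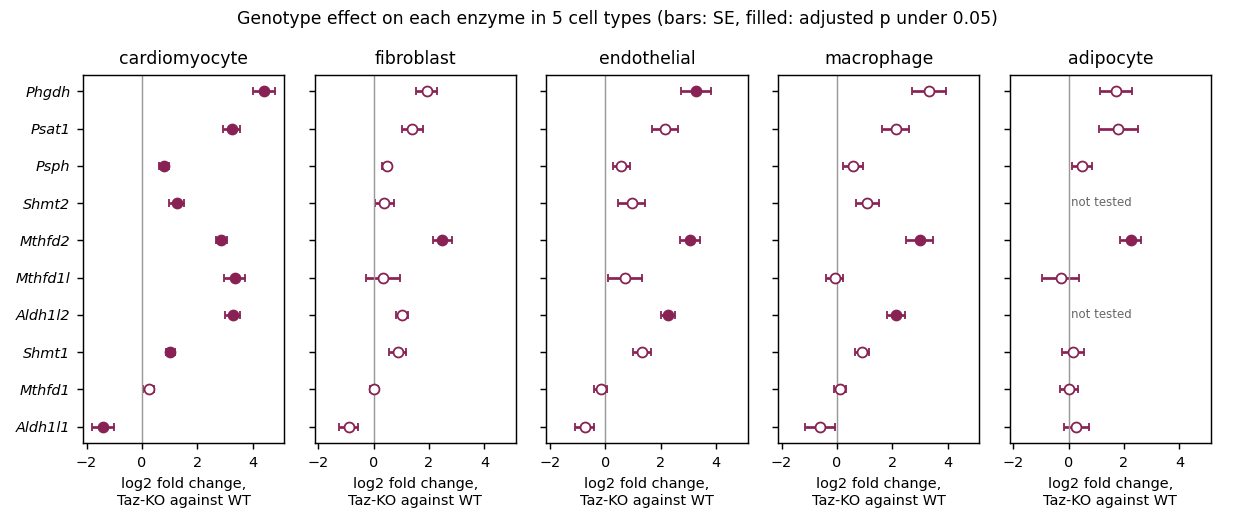
Log2 fold change (Taz-KO against WT, edgeR) of each gene in the 5 cell types, with bars of 1 SE and filled symbols for an adjusted p under 0.05. Mthfd2 is filled in all 5 types, 9 of 10 genes are filled in cardiomyocytes, and Mthfd1l lies near 0 in macrophages and at 3.35 in cardiomyocytes.

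RNA of cardiomyocytes in the other types was measured beside these values. All 8 mature cardiomyocyte transcripts of a marker list were found in fibroblasts, and their sum ran from 3914 to 20092 CPM (median 15519) in WT mice and from 1330.0 to 13072 CPM (median 9878) in Taz-KO mice, against medians of 19745 and 14654 CPM in cardiomyocytes. Scaled by these sums, cardiomyocyte RNA alone would give Taz-KO fibroblasts a mean of 33.3 CPM of Mthfd2, where 57.0 CPM were observed, above the expected level in 4 of 4 mice. The expected and observed means were 48.4 and 67.8 CPM in endothelial cells, 53.7 and 67.9 CPM in macrophages and 36.1 and 45.2 CPM in adipocytes, with the observed level above in 3 of 4 mice of each type. Scaled by Ttn and Ryr2 instead, the observed Mthfd2 level was above the expected one in 4 of 4 mice in each type. The mature-transcript sum of a type relative to that of cardiomyocytes of the same mouse reached 110.5% in endothelial cells, 145.3% in macrophages and 102.8% in adipocytes of Taz-KO mice, and 85.1% in fibroblasts. A sum above 100% is more than a mixture with RNA of cardiomyocyte nuclei can reach. In Taz-KO mice this scaling gave Aldh1l2 a mean of 57.0 CPM in macrophages, where 12.5 CPM were observed. It gave Mthfd1 32.2 CPM in endothelial cells, where 17.8 CPM were observed. In both the observed level was above in 0 of 4 mice, so these expected levels are higher than carried RNA can be. Whether the expected levels of the other genes are too high or too low was not tested. The Ttn and Ryr2 sum reached at most 30.9%.

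Phgdh lay above the expected level in 4 of 4 Taz-KO mice of every type under the mature-transcript scaling, for example 22.4 against 12.7 CPM in fibroblasts. For Aldh1l2 the scaling decided the side. Under the mature-transcript scaling its Taz-KO mean lay below the expected one, at 15.9 against 35.9 CPM in fibroblasts and 15.4 against 52.1 CPM in endothelial cells. The observed level was above in 1 of 4 mice of either type. Under the Ttn and Ryr2 scaling the expected levels were 8.08 and 11.1 CPM, and the observed level was above in 4 of 4 and 3 of 4 mice. With the expected counts subtracted by either scaling, edgeR called none of the 10 genes in any of the 4 types, but these fits called almost no gene at all. The share of all genes called was 0% in fibroblasts and macrophages after either subtraction, 0% and 0.013% in endothelial cells and 0.0713% and 0.159% in adipocytes, so the count of 0 is not a result about these genes. After the mature-transcript subtraction 9 genes could be tested in fibroblasts, 6 in endothelial cells, 4 in macrophages and 5 in adipocytes, of which 1, 1, 1 and 0 had an unadjusted p under 0.05. After the Ttn and Ryr2 subtraction the tested genes were 10, 10, 8 and 7, and those with an unadjusted p under 0.05 were 5, 4, 5 and 1. The log2 fold change of Mthfd2 after the mature-transcript subtraction was 4.16 in endothelial cells, 3.50 in macrophages and 2.51 in fibroblasts. Subtracted counts below 0 were set to 0. WT Mthfd2 lay above the expected level in 2 of 4 endothelial, 3 of 4 macrophage and 4 of 4 fibroblast mice. The endothelial and macrophage values thus rest partly on WT counts of 0 and do not give the size of a rise. How much of each difference outside cardiomyocytes came with cardiomyocyte RNA was not tested beyond these subtractions.

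**Figure D4:**
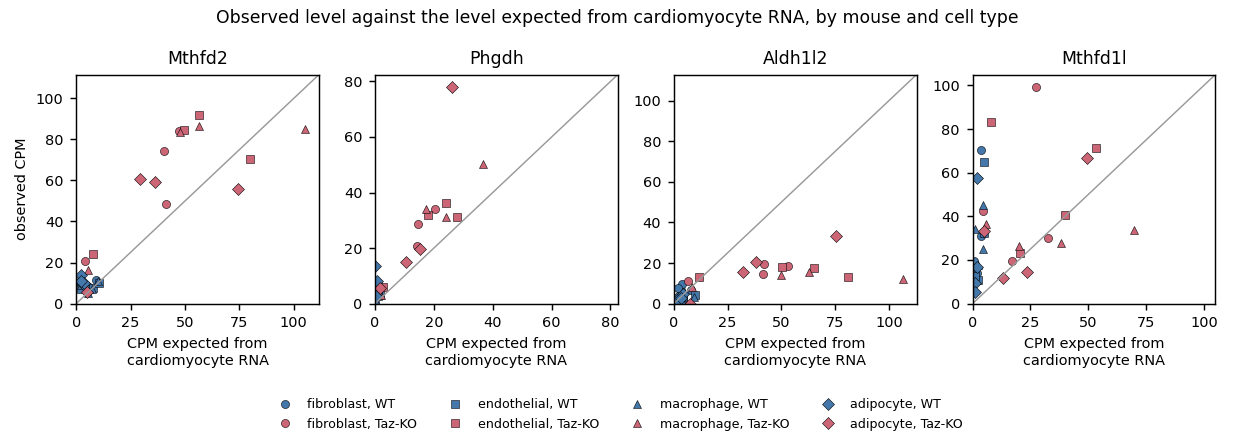
Observed level of Mthfd2, Phgdh, Aldh1l2 and Mthfd1l against the level expected from cardiomyocyte RNA (both in CPM), scaled by mature cardiomyocyte transcripts, with 1 point per mouse of either genotype and cell type and a line of equality. The Taz-KO points of Mthfd2 and Phgdh lie mostly above the line and those of Aldh1l2 mostly below it.

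Whether a gene's genotype effect differed between cardiomyocytes and another type was tested by the interaction of type and genotype. Against fibroblasts, 4 of the 10 genes had a larger effect in cardiomyocytes, where 1.81% of all genes did: Mthfd1l by 2.95 on the log2 scale (adjusted p = 0.00133), Phgdh by 2.47 (adjusted p = 0.0178), Aldh1l2 by 2.16 (adjusted p = 0.0130) and Psat1 by 1.73 (adjusted p = 0.0156). Against the other types, Mthfd1l was the only gene of the 10 called, by 2.47 in endothelial cells (adjusted p = 0.00261, 1.2% of all genes called), by 3.37 in macrophages (adjusted p = 3.46e-04, 0.754% called) and by 3.30 in adipocytes (adjusted p = 2.56e-04, 1.72% called). The Mthfd2 effect was not called different between cardiomyocytes and any other type, with differences from −0.20 to 0.55. After the mature-transcript subtraction edgeR called no gene of the 10 against fibroblasts, endothelial cells or macrophages, with 4, 3 and 4 at an unadjusted p under 0.05, and those fits called none of 18519, 16769 and 15952 genes, while Mthfd1l was still called against adipocytes. Over 10 alternative settings, this one included, the called differences kept their sign. For these genes the subtraction took a higher mean CPM from Taz-KO than from WT mice of the other type. A sign kept after it therefore adds no support. It also set counts below 0 to 0, so the upper ends of the ranges, which include it, do not give the size of an effect. Against fibroblasts the differences ran from 2.75 to 5.29 for Mthfd1l, 2.19 to 3.98 for Phgdh, 1.83 to 8.09 for Aldh1l2 and 1.57 to 3.30 for Psat1. For Mthfd1l they ran from 2.20 to 4.96 against endothelial cells and from 2.94 to 7.42 against macrophages. The adipocyte call of Mthfd1l was lost with relative marker-pair typing (adjusted p = 0.742), with the effect still the larger one in cardiomyocytes. Against fibroblasts, Phgdh was also lost without WT 5355 (adjusted p = 0.0620) and Psat1 without WT 4686 (adjusted p = 0.0545).

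The Mthfd1l levels show where that difference lies. WT cardiomyocytes held 2.18 to 5.82 CPM, below the same mouse's level in each of the 4 other types in 4 of 4 WT mice. WT fibroblasts held 70.6, 30.8, 13.9 and 19.3 CPM, WT endothelial cells 64.9, 32.2, 10.7 and 12.6 CPM, and WT macrophages 45.3, 25.2, 17.7 and 34.3 CPM. Taz-KO levels of 99.0, 30.02, 19.5 and 42.4 CPM in fibroblasts and 33.8, 27.9, 26.2 and 36.5 CPM in macrophages overlapped the WT range, with log2 fold changes of 0.35 and −0.08. Taz-KO endothelial levels ran from 23.0 to 83.3 CPM and overlapped WT as well, with a log2 fold change of 0.70 (SE 0.61, edgeR adjusted p = 0.933). WT 4686 and Taz-KO 4685, whose numbers are consecutive, had the highest fibroblast levels of their groups. Fibroblast RNA was also spread over these types, with the 6 fibroblast markers at medians of 8882 CPM in WT and 7640 CPM in Taz-KO endothelial cells and 8347 and 7540 CPM in macrophages, and its part in the Mthfd1l levels was not tested.

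Aldh1l2 had its highest Taz-KO level in cardiomyocytes, at 61.2 to 73.3 CPM, and no Taz-KO mouse had a higher level in any of the 4 other types, whose levels ran from 0 to 33.4 CPM and overlapped one another. In Taz-KO 4685 the cardiomyocyte level rests mostly on the cluster of 1 library. The cluster 5 nuclei of that mouse held 25.7 CPM of Aldh1l2, below the 33.4 CPM of its few adipocytes. Aldh1l1 had its highest WT level in adipocytes, at 39.2, 26.7, 13.5 and 46.0 CPM, above the cardiomyocyte level of 5.54 to 7.93 CPM in 4 of 4 mice. Its Taz-KO adipocyte levels of 0, 34.7, 49.9 and 16.7 CPM overlapped WT, the 0 being the mouse with the fewest adipocytes. Mthfd1 stayed between 8.03 and 29.3 CPM in fibroblasts and endothelial cells of either genotype, where its log2 fold change was 0.00 and −0.17, respectively.

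Of the surrounding pathway, genes that move serine and glycine or use them rose in part in cardiomyocytes, with 4 of 17 tested called higher and 1 lower, beside 6.78% and 5.49% of all genes. Slc1a4, a neutral amino acid and serine transporter, went from 1.13 to 2.25 CPM in WT mice to 24.5 to 47.5 CPM in Taz-KO mice (log2 fold change 4.34, adjusted p = 1.41e-05). Slc6a9, the glycine transporter GlyT1, rose by 3.30 on the log2 scale, Cth, the cystathionine gamma-lyase of cysteine synthesis, by 2.05, and Sfxn1, the mitochondrial serine carrier, by 1.01. The gene called lower, named after its value was seen, was Sfxn2 of the same carrier family (log2 fold change −0.96, adjusted p = 0.00988). Cth was also called higher in macrophages, by 2.28.

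Among the genes that take up the carbon units, none of 10 methionine cycle genes, none of 11 purine and thymidylate synthesis genes and none of 15 other folate genes tested was called in cardiomyocytes by edgeR, with 0, 3 and 3 of them at an unadjusted p under 0.05 and 0, 1 and 0 called by DESeq2. With 12.3% of all genes called, a count of 0 in any 1 list of this size is not read as a result about that list. Their median log2 fold changes were 0.15, 0.13 and 0.15, beside 0.03 over all genes. Of the 4 genes of glycine cleavage, Amt was called, with a log2 fold change of 0.77 and an adjusted p of 0.0496. Of 6 glycolytic genes around 3-phosphoglycerate, the muscle enolase Eno3, which acts downstream of it, was called, and it was lower, at 46.4 to 76.1 CPM in Taz-KO mice against 91.5 to 185 CPM in WT mice (log2 fold change −1.44). Of 5 cycling genes Cenpf was lower (log2 fold change −1.48). With 12.3% of all genes called, a single call in a list of 4, 5 or 6 genes is not read as a result about that list.

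Of 9 genes in a list of ATF4, partner factors and related stress genes, 6 were called higher in cardiomyocytes, where 6.78% of all genes were (median log2 fold change of the list 1.23). Trib3, a pseudokinase and textbook ATF4 target, went from 1.05 to 2.42 CPM in WT mice to 61.6 to 115 CPM in Taz-KO mice (log2 fold change 5.63, adjusted p = 4.2e-06). Myc rose by 3.03, Cebpg, a C/EBP partner of ATF4, by 2.16 and Atf5 by 1.999 on the log2 scale. Trib3 was also called higher in fibroblasts (1.80), endothelial cells (2.02) and macrophages (3.05), and Atf5 in adipocytes (1.61). No other gene of these lists was called by edgeR in the 4 other types.

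The genes whose levels followed 2 of the 10 most closely were sought over 40 points, 8 mice in 5 cell types, among the 10213 genes tested in all types. The points share mice, libraries, depth and carried RNA, so the coefficients are descriptions. Mthfd2 was followed by Gdf15 (Pearson r = 0.936), Sars (0.905), Phgdh (0.897), Cyb5r1 (0.896) and Gars (0.885). Aldh1l2 was followed by Slc24a2 (0.904), Ero1l (0.884), Snhg4 (0.822), Fam227b (0.817) and Flnc (0.812). Gdf15 encodes a secreted stress cytokine, Sars and Gars the seryl- and glycyl-tRNA synthetases, and Ero1l an oxidase of the endoplasmic reticulum.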

How the data were processed

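Whole-heart nuclei were sequenced with 10x 3′ chemistry, 1 library per mouse for 8 mice. For every barcode and gene the authors deposited a raw count of UMIs, made per the labels with Cell Ranger 6.0.1 on mm10 with introns counted. The strand setting is not given in the sources used here, and Shmt2, Psph, Aldh1l2 and Shmt1 overlap genes on the opposite strand (Ndufa4l2, Cct6a, D10Wsu102e and Smcr8). Positions are from the GRCm38 annotation and promoters from RefSeq.

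Barcodes below 800 UMIs or 250 genes were left out. Doublets were simulated and scored in each library, and 0.8% of barcodes for every 1000 barcodes, at most 10%, were removed. Nuclei were clustered (2000 variable genes without the genes of the lists, 15 components, Harmony, Leiden at resolution 0.9, 20 neighbours), and clusters were named from 4 to 6 marker genes by thresholds chosen after the cluster scores were seen. The study's annotation and its removal of ambient RNA were not used here, and mitochondrially encoded genes were left out of all sums. Counts were summed per mouse and type (at least 10 nuclei), where the study tested nuclei, and tested by the edgeR 4.0.16 quasi-likelihood test (TMM, filterByExpr, Benjamini-Hochberg over all genes of the type). The interaction of type and genotype had the mouse as a block. The labels give the mice by number alone, so p-values measure the spread between these animals.

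Ratios used a pseudocount of 0.5 UMIs and an exact permutation test, and likeness used log2(CPM + 1). Carried cardiomyocyte RNA was estimated per mouse as the cardiomyocyte profile times the ratio of 8 mature cardiomyocyte transcripts, or of Ttn and Ryr2, in the type to that in cardiomyocytes. Alternatives were RLE size factors, DESeq2 1.42.0, no filter on low counts, the stricter thresholds of the study's methods (adjusted p 0.001 and log2 fold change 0.58), each mouse left out, Taz-KO 4685 and 5301 left out, typing of single nuclei by marker pair, doublets kept, sums thinned to equal depth and subtraction of carried RNA. A relative marker-pair typing and the removal of a cluster of 1 library were added after seeing the data. Up to 4 called genes of each pathway list with the largest change per type were named. The scripts were tested on simulated data, and the members and lists were chosen with earlier results of these data known. Python 3.11.15, scipy 1.17.1, leidenalg 0.10.2, R 4.3.3 and matplotlib 3.10.9 were used.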

Additional observations from a re-analysis of the deposited data

Results flagged for a closer look

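Of 100 groups of 4 mice examined (10 genes, 5 types, 2 genotypes), 9 held a mouse far from the other 3 by Dixon's test, where chance gives about 1 in 20, or 5. In 4 of the 9 the mouse was Taz-KO 5301, low in each: Shmt1 at 3.61 CPM in fibroblasts, Phgdh at 6.02 CPM in endothelial cells, and Mthfd2 at 16.2 CPM in macrophages and 5.55 CPM in adipocytes. The other 5 were Shmt1 at 9.27 CPM in cardiomyocytes of WT 4909, Mthfd2 at 10.1 CPM in endothelial cells of WT 5355, Psph at 10.3 CPM in macrophages of WT 4909, Aldh1l2 at 1.39 CPM in macrophages of WT 4686, and Psph at 33.4 CPM in adipocytes of Taz-KO 4685.

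The 7 genotype effects that differed between cardiomyocytes and another type by an interaction test were larger in cardiomyocytes. On the log2 scale the differences from fibroblasts were 2.95 for Mthfd1l, 2.47 for Phgdh, 2.16 for Aldh1l2 and 1.73 for Psat1. Those of Mthfd1l were 2.47 from endothelial cells, 3.37 from macrophages and 3.30 from adipocytes.

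In 6 types with fewer nuclei that entered no comparison, every Taz-KO mouse lay above every WT mouse for 10 of 60 pairs of gene and type and below for 2, both Aldh1l1 in lymphocytes, without a test. Of genes with at least 10 UMIs in the type, 1.47% lay above in B-lymphocyte-like, 2.92% in T-lymphocyte-like, 1.98% in lymphatic endothelial-like, 2.83% in mesothelial-like, 1.66% in pericyte-like and 1.42% in dendritic-like nuclei, the last 2 with none of the 10 genes above, and 3.87% and 5.62% lay below in the 2 lymphocyte types. In B-lymphocyte-like nuclei, with 8 and 9 nuclei in Taz-KO 4685 and 5301, the Taz-KO means were 30.3 CPM for Phgdh (WT 1.59 to 6.22 CPM) and 90.5 CPM for Mthfd2 (6.005 to 14.9 CPM). In T-lymphocyte-like nuclei they were 22.6 CPM for Phgdh (0.97 to 4.08 CPM), 62.4 CPM for Mthfd2 (8.08 to 12.2 CPM) and 31.8 CPM for Aldh1l2 (3.62 to 5.83 CPM). In lymphatic endothelial-like nuclei they were 11.8 CPM for Psat1 (4.25 to 7.87 CPM), 14.6 CPM for Shmt2 (4.38 to 7.55 CPM), 59.7 CPM for Mthfd2 (2.19 to 10.5 CPM) and 12.9 CPM for Aldh1l2 (1.10 to 2.62 CPM), and in mesothelial-like nuclei 12.9 CPM for Psph (4.78 to 6.25 CPM). Carried RNA was present in these nuclei too, and its part was not tested.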

How the results depend on the processing

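In cardiomyocytes, the log2 fold changes of the 10 genes kept their sign under each of 18 alternatives, and a call was lost in 23 cases. Against 9 genes called, 5 were called under the stricter thresholds and 5 without the cluster of 1 library, and leaving out 1 mouse gave 7 to 9. Over all genes the calls fell from 2237 to 284, 661 without that cluster and 688 with typing by marker pair.

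In fibroblasts (1 called), the stricter thresholds, relative marker-pair typing, thinning and both subtractions gave 0, and DESeq2 and the fit without Taz-KO 4685 and 5301 gave 4 (0 to 4 with 1 mouse left out). In endothelial cells (3 called), the stricter thresholds and both subtractions gave 0, thinning 1 and DESeq2 5 (0 to 5 with 1 mouse left out). In macrophages (2 called), the stricter thresholds, relative marker-pair typing, thinning and both subtractions gave 0, doublets kept 1, and DESeq2 and the fit without Taz-KO 4685 and 5301 gave 4 (0 to 4). In adipocytes (1 called), the stricter thresholds, relative marker-pair typing, thinning and both subtractions gave 0, DESeq2 2, the fit without 4685 and 5301 2, and no filter 3 (0 to 2). Mthfd2, the gene called, could not be tested in adipocytes with relative marker-pair typing, where 1 of the 10 could, after thinning, where 0 could, or after the mature-transcript subtraction. The genes left to test by thinning numbered 8, 5 and 3 in fibroblasts, endothelial cells and macrophages, and relative marker-pair typing left 8 in macrophages. The share of all genes called under the stricter thresholds, relative marker-pair typing and thinning is not given here. A count of 0 under them is therefore not read as a result about these genes. The stricter thresholds were applied to the main edgeR fit, so its unadjusted p-values are the same under them. In that fit 7 genes in fibroblasts, 5 in endothelial cells, 6 in macrophages and 3 in adipocytes had an unadjusted p under 0.05. The calls over all genes with DESeq2 were 350 against 63, 338 against 80, 212 against 37 and 247 against 127 in these types in turn.

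The genes with an effect that differed from cardiomyocytes numbered 0 for fibroblasts, endothelial cells and macrophages and 2 for adipocytes after the mature-transcript subtraction, with 4, 3, 4 and 6 at an unadjusted p under 0.05 (over all genes 0, 0, 0 and 268 were called there, against 741, 395, 167 and 418), and 2 for adipocytes with relative marker-pair typing. Mthfd1l was among the 2 after the subtraction (adjusted p = 0.00198) and not with that typing (adjusted p = 0.742). With 1 mouse left out they were 3 to 4, 1 to 1, 1 to 1 and 1 to 3. The log2 difference of Shmt2 to Shmt1 turned to −0.089 with marker-pair typing and ran from 0.03 to 0.37 with 1 mouse left out, against 2.49 to 2.91 for Mthfd2 to Mthfd1, 3.02 to 3.45 for Mthfd1l to Mthfd1 and 4.58 to 5.21 for Aldh1l2 to Aldh1l1. With marker-pair typing the last 3 were 2.82, 1.61 and 3.95. Planned marker-pair typing left too few nuclei outside cardiomyocytes and was not run there. The cause of these changes was not tested.

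Uncalled log2 fold changes turned sign in 37 cases. After the mature-transcript subtraction in fibroblasts, Psat1 was −0.0077, Shmt2 −0.34, Mthfd1l −0.65, Aldh1l2 −2.46 and Aldh1l1 0.28, in endothelial cells Mthfd1l −0.84 and Aldh1l1 0.46, and in adipocytes Shmt1 −0.043 and Mthfd1 −0.21. After the Ttn and Ryr2 subtraction, Mthfd1 was −0.0030 in adipocytes and −0.046 in fibroblasts, where it was −0.0098 with RLE factors, −0.030 with DESeq2, −0.029 with no filter and −0.062 with relative marker-pair typing. With that typing in macrophages, Mthfd1l was 0.075 and Mthfd1 −0.11. DESeq2 gave 0.24 for Mthfd1l and −0.0042 for Aldh1l1 in adipocytes. Without Taz-KO 4685 and 5301, Mthfd1 was −0.050 in fibroblasts and 0.061 in endothelial cells, and Mthfd1l −0.53 in fibroblasts. With 1 mouse left out, Mthfd1l ran from −0.24 to 1.03 in fibroblasts, from −0.28 to 0.19 in macrophages and from −0.57 to 0.64 in adipocytes, and Mthfd1 from −0.080 to 0.035, from −0.019 to 0.16 and from −0.12 to 0.17 in these types in turn. Shmt1 ran from −0.065 to 0.32 and Aldh1l1 from −0.056 to 0.48 in adipocytes.

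No paired analysis was made, as the groups share no replicate numbers. Taz-KO 4685 and WT 4686, and WT 4909 and Taz-KO 4910, have consecutive numbers, but the labels do not say what these mark, and a fit with a block on them was not made. Depth limits Aldh1l1 in Taz-KO cardiomyocytes, which rests on 6 UMIs in 1 mouse, and all adipocyte values, which rest on 89943 UMIs in the smallest sum.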
